A study of Rattus norvegicus with 8 samples.

Results

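The genes described here are 10 genes of fat cells and of their lipid stores: Adipoq, Lep, Cfd, Fabp4, Cd36, Lpl, Plin1, Plin4, Cidec and Pparg. They were chosen by name, with earlier results of these data known, so counts among them are descriptions. Each was represented by the probe set of highest mean for its symbol, and all 10 were found among 22093 measured genes. Each had 1 named probe set. They were measured in rat oesophagus on Affymetrix expression arrays, whose deposited values are on the log2 scale, so that a difference of 1 is a 2-fold change in signal. There were 8 arrays from 4 animals, 2 per diet, and each animal gave 1 array of oesophageal epithelial neoplasia and 1 of adjacent normal tissue. Every animal, those on the control diet included, had received N-nitrosomethylbenzylamine (NMBA), a carcinogen used to produce oesophageal tumours in rats. The dose was 0.35 mg/kg under the skin, 3 times per week for 5 weeks. The riboflavin-normal group was fed a diet with riboflavin, the precursor of the flavin cofactors, and the riboflavin-deficient group a diet deficient in it, until the animals were killed at week 25. The sources used here give no strain, genotype, sex or age, and no animal without NMBA was analysed here. The tissue had been fixed and embedded in paraffin, and the region to be measured was taken from it before RNA extraction, so that each array reflects whatever cells that region held. The separate animals are called riboflavin-normal 1 and 2 and riboflavin-deficient 1 and 2.

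Fat cells store triglyceride in a single large droplet whose coat proteins, the perilipins and Cidec, control its size and its breakdown. Fatty acids reach the droplet after lipoprotein lipase has released them from blood lipoproteins, through the transporter Cd36 and the carrier Fabp4, and the nuclear receptor Pparg switches on most of these genes. Fat cells also secrete hormones, of which adiponectin (Adipoq) and leptin (Lep) are the best known. In the oesophagus they lie in the outer connective tissue, outside the muscle coat, and are no part of the squamous epithelium. Several of these genes are not restricted to fat cells: Cd36 and Lpl are also made by striated muscle, Cd36 and Fabp4 by capillary endothelium, and Plin4 by muscle.

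The arrays were first compared with markers of the labelled tissue. The 9 measured markers of squamous epithelium had a median of 10.57 to 16.18, lowest on the normal tissue of riboflavin-normal 1. There the 95th percentile of the negative control probe sets was 11.47. Skeletal muscle transcripts had a median of 11.16 to 14.56 over 11 markers, lowest on the neoplasia of riboflavin-deficient 2, where that percentile was 12.11. The separation of positive and negative control probe sets, a measure of array quality given as the area under the curve, ran from 0.577 to 0.757. Full separation would be 1, and all arrays were well below it, with 0.617 on the neoplasia of riboflavin-deficient 1. The array of highest separation was the adjacent normal tissue of riboflavin-normal 2. That array also stood apart in its genes, since 338 of 22093 (1.53%) were at least 1 log2 unit above every other array, against 12 to 57 on each of the others.

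Among the members, the widest difference within a pair belonged to Fabp4, the fatty acid carrier of fat cells and of capillaries. Its value was 12.73 in the neoplasia of riboflavin-deficient 1, against 8.14 in the normal tissue beside it. In riboflavin-deficient 2 it was 7.92 in neoplasia and 8.48 in normal tissue, in riboflavin-normal 1 it was 7.90 and 8.36, and in riboflavin-normal 2 it was 8.43 and 9.06. The neoplasia of riboflavin-deficient 1 thus stood 3.67 above the highest of the other 7 arrays, which spanned 1.16, and the other 3 animals were all slightly lower in neoplasia. On the linear scale the signal in that pair was 24.1-fold higher in neoplasia. The lower value lay above 85.2% of the negative control probe sets on its array but below their 95th percentile, 11.28. The size of this fold difference is therefore uncertain. In bulk tissue, more cells of a type and more RNA per cell cannot be told apart.

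Adipoq, the adipokine made almost only by fat cells, was high on the same array. It read 8.36 in the neoplasia of riboflavin-deficient 1 and 4.56 in its normal partner, a log2 difference of 3.79. The other 6 arrays read 4.50 and 5.11 in the neoplasia and normal tissue of riboflavin-normal 1, 4.80 and 4.99 in riboflavin-normal 2, and 4.85 and 5.00 in riboflavin-deficient 2. The 7 arrays other than the high one lay above 32.1% to 48.1% of their 1153 negative control probe sets, whereas 8.36 lay above 86.5%. A fold change is therefore not given for Adipoq. Adipoq thus stood above the median of the negative controls in 1 animal, in its neoplasia only. That median is not a detection limit, since 8.36 was below the 95th percentile of the negative controls on that array, 11.23.

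The droplet gene Cidec, which drives fusion of lipid droplets in fat cells, followed. It read 5.75 in the neoplasia of riboflavin-deficient 1 and 4.06 in its normal tissue. It was 4.04 and 4.01 in riboflavin-deficient 2, 4.03 and 3.89 in riboflavin-normal 1, and 3.82 and 4.03 in riboflavin-normal 2 (neoplasia and normal). The 7 arrays other than the high one spanned 0.24, and the high one exceeded them by 1.69. Those 7 values lay above only 16.4% to 24.4% of the negative controls and the high one above 58.6%, so the size of the difference is uncertain. Of all 22093 genes, 32 (0.145%) were at least 1 above every other array on that one, and Fabp4, Adipoq and Cidec were 3 of them.

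The starts of these genes are shown because 9 of the 10 members were highest on that array. Adipoq and Cidec had wide margins there, Plin1 a margin of 0.45 and Lep one of 0.05. Windows of 300 bases, from 250 before to 50 after the transcription start, were available for 8 of the 10 members in RefSeq sequence of build GRCr8. They were searched on both strands for the PPAR response element (a direct repeat of a nuclear receptor half-site with 1 base between), the half-site AGGTCA, a C/EBP motif (TTGCNNAA) and a TATA motif (TATAAA), where N is any base. Capitals mark a match, and here all are to the C/EBP motif. The windows are Adipoq (chr11:91240120-91240419, minus strand), Cidec (chr4:148137066-148137365, minus strand), Plin1 (chr1:143086099-143086398, minus strand) and Lep (chr4:58626288-58626587, plus strand), each printed 5′ to 3′ along its gene.
Adipoq: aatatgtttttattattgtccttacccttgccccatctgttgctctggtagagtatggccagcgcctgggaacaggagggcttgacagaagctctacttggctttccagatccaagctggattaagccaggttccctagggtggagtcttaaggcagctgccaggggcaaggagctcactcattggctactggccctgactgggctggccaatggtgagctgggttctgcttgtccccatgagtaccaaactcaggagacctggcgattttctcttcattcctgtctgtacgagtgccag
Cidec: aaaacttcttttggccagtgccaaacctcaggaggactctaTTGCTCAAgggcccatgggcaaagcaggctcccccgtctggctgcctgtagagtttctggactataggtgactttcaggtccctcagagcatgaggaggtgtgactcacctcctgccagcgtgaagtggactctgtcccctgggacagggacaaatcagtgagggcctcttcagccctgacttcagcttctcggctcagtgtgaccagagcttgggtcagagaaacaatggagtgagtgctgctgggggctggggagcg
Plin1: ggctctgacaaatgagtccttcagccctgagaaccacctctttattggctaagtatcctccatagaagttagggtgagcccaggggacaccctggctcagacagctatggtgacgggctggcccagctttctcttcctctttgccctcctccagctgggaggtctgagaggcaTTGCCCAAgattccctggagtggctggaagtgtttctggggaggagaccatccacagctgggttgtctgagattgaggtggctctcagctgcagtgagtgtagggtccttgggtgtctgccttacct
Lep: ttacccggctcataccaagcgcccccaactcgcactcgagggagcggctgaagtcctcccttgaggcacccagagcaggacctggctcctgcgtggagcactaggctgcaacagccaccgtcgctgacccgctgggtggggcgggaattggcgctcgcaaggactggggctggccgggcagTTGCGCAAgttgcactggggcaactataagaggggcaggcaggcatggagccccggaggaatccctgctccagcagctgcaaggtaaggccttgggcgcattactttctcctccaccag
The C/EBP match began at base -209 from the start in Cidec, -77 in Plin1 and -69 in Lep, where TTGCGCAA reads the same on both strands. Such a match was present in 10.6% of all 33469 windows of that length. Neither the direct repeat, found in 0.0538% of windows, nor its half-site, found in 16.2%, was present in any of the 8. A repeat this rare would be missing from nearly any 8 windows, so its absence carries no information on control by Pparg. A TATA motif, found in 14.2%, was present in Cd36, beginning at base -175, and in Pparg, at base 29 after the start. Both matches were on the strand opposite to the gene. For Plin4 and Pparg, which had 5 and 2 windows, only the first was searched.

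**Figure D1:**
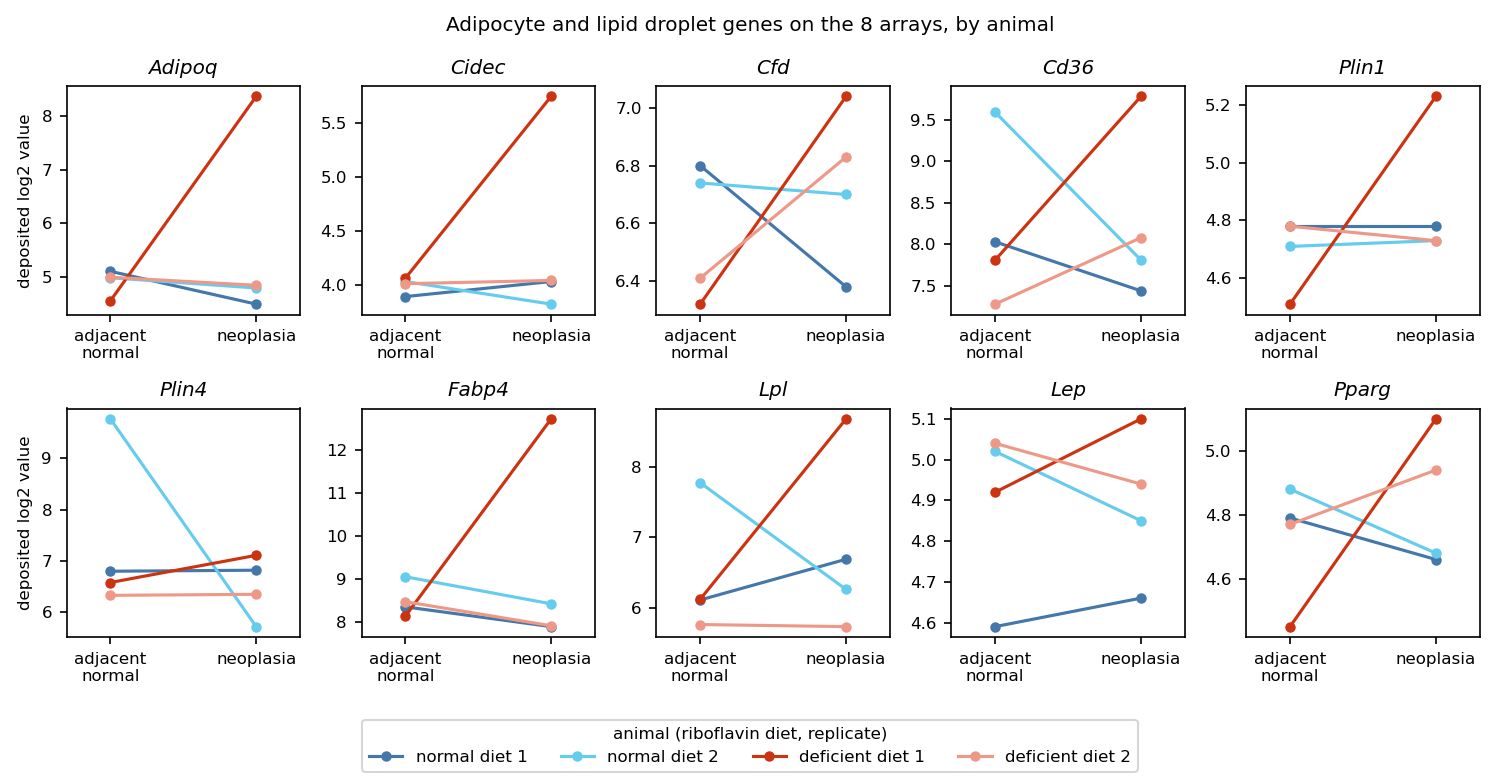
Deposited log2 values of the 10 genes (vertical axes, own scale per gene) in adjacent normal tissue and neoplasia, with a line for each of the 4 animals. In Adipoq, Cidec, Fabp4 and Plin1 the neoplasia of riboflavin-deficient 1 stands apart, and in Plin4 the normal tissue of riboflavin-normal 2 does, at 9.77.

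The remaining genes of fatty acid supply differed in more than 1 animal. Lpl, lipoprotein lipase, read 8.69 in the neoplasia and 6.12 in the normal tissue of riboflavin-deficient 1, and 5.73 and 5.76 in riboflavin-deficient 2. In riboflavin-normal 1 it read 6.69 and 6.11, and in riboflavin-normal 2 it read 6.26 and 7.78. The highest array was again the neoplasia of riboflavin-deficient 1, by 0.90 over the normal tissue of riboflavin-normal 2, and the within-animal differences of 2.57, -0.03, 0.58 and -1.52 had no common sign.

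Cd36, the fatty acid transporter, read 9.78 in the neoplasia and 7.81 in the normal tissue of riboflavin-deficient 1, and 8.08 and 7.28 in riboflavin-deficient 2. It read 7.44 and 8.03 in riboflavin-normal 1, and 7.81 and 9.59 in riboflavin-normal 2. Neoplasia was therefore higher in both riboflavin-deficient animals, by 1.97 and 0.80, and lower in both riboflavin-normal animals, with differences of -0.59 and -1.78. The highest 2 arrays, the neoplasia of riboflavin-deficient 1 and the normal tissue of riboflavin-normal 2, differed by 0.19.

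Plin4, a perilipin of fat cells and muscle, was the member whose pattern differed most from the others. It read 9.77 in the normal tissue of riboflavin-normal 2 and 5.72 in its neoplasia, a 16.5-fold difference. The lower value lay above 57.2% of the negative controls on its array, so the size of this fold difference is uncertain. The other arrays read 6.82 and 6.80 in riboflavin-normal 1, 7.11 and 6.58 in riboflavin-deficient 1, and 6.35 and 6.33 in riboflavin-deficient 2 (neoplasia and normal). Of the 338 genes at least 1 above every other array on that normal array, Plin4 was the only member. Within the other 3 animals Plin4 differed by 0.02 to 0.53, so its mean difference rested on riboflavin-normal 2.

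Plin1, the perilipin that guards the droplet of fat cells, read 5.23 in the neoplasia of riboflavin-deficient 1 and 4.51 in its normal tissue. On the other 6 arrays it read between 4.71 and 4.78. Every one of its values lay above no more than 46.9% of the negative control probe sets, so the log2 difference of 0.73 in that animal is one at low signal.

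Pparg, the regulator, read 4.45 to 5.10 over the arrays, and Lep 4.59 to 5.10. On every array both lay above fewer than 50 percent of the negative controls, at most 45.4% for Pparg and 48.4% for Lep. In neoplasia Pparg was higher by 0.65 and 0.17 in the riboflavin-deficient animals and differed by -0.13 and -0.20 in the riboflavin-normal ones, and Lep differed by -0.17 to 0.17. Cfd, the complement protease adipsin, read 7.04 in the neoplasia and 6.32 in the normal tissue of riboflavin-deficient 1, and 6.83 and 6.41 in riboflavin-deficient 2. It read 6.38 and 6.80 in riboflavin-normal 1, and 6.70 and 6.74 in riboflavin-normal 2. Cfd, like Cd36 and Pparg, was thus higher in neoplasia in both riboflavin-deficient animals and lower in both riboflavin-normal ones, with differences for Cfd of 0.72, 0.43, -0.42 and -0.04. This order of signs was found in 3 of 10 members and 4.6% of all genes, and the opposite order in 0 members and 6.33% of all genes.

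**Figure D2:**
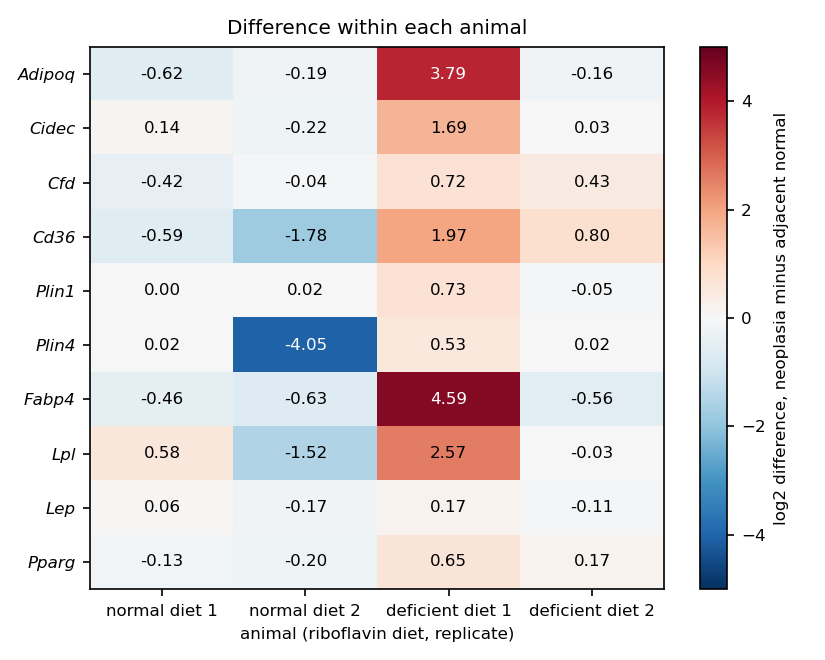
Difference in log2 value, neoplasia minus adjacent normal tissue, for each gene (rows) in each of the 4 animals (columns), with red for higher in neoplasia and blue for lower. All 10 genes were above 0 in riboflavin-deficient 1, from 0.17 in Lep to 4.59 in Fabp4, and the lowest value was -4.05, Plin4 in riboflavin-normal 2.

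By animal, riboflavin-deficient 1 carried the higher values. In its pair all 10 members were higher in neoplasia, where 50.1% of all genes were, and 5 of the 10 (Adipoq, Cidec, Cd36, Fabp4 and Lpl) were higher by at least 1, where 1.06% of all genes were (2.77% were lower by at least 1, and 0 members). The median of the members was 1.21, against 0.00 over all genes. In riboflavin-deficient 2 the median was -0.01, with 5 of 10 members higher (49% of all genes) and none different by 1 or more (0.665% of all genes higher, 0.706% lower). In riboflavin-normal 1 the median was -0.07, with 4 of 10 higher (42.6%) and none different by 1 or more (4.09% higher, 1.72% lower). In riboflavin-normal 2 the median was -0.21, with 1 of 10 higher (60.6%), and Cd36, Plin4 and Lpl were lower by at least 1, where 2.95% of all genes were (1.14% were higher by that much, and 0 members). Adipoq, Fabp4 and Cidec differed by -0.19, -0.63 and -0.22 in that animal. Of the 10 members, 9 were highest on the neoplasia of riboflavin-deficient 1, where 10.8% of all genes were. The normal and neoplasia arrays of riboflavin-normal 1 were highest for 16.9% and 7.55% of all genes and for 0 members. Those of riboflavin-normal 2 were highest for 17.8% and 12.8%, and for 1 and 0 members, Plin4 being the 1. For Lep, Pparg, Cd36 and Cfd the margin over the next array was only 0.05 to 0.20. In 4 of 10 members (Fabp4, Adipoq, Plin1 and Plin4) 1 of the 4 within-animal differences stood apart from the other 3 by Dixon's test, as it did in 5.78% of all genes. A value from 1 pair has no replicate check. The members were chosen with earlier results of these data known, so the shares of all genes describe these counts and do not test them.

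Over the 4 animals, the mean neoplasia effect was tested with limma, with the animal as a block. No member passed at an adjusted p under 0.05, as was the case for all 22093 genes (0%). An unadjusted p under 0.05 was reached by 1.23% of genes as higher in neoplasia and 0.964% as lower, and by 0 members. Fabp4 had a mean of 0.74 (SE 0.85, 95% interval -1.48 to 2.96) and Adipoq 0.71 (SE 0.66, interval -1.02 to 2.43), each with an adjusted p = 1 and with 1 of 4 animals higher. For Cidec the mean was 0.41 (SE 0.30), for Plin4 -0.87 (SE 0.68) and for Lep -0.01 (SE 0.12). The median of the members was 0.17, with 8 of 10 above 0, against 50.5% of all genes. Without riboflavin-deficient 1 it was -0.14, with 2 of 10 above 0, without riboflavin-normal 2 it was 0.28, with 10 of 10 above 0, and without riboflavin-deficient 2 it was 0.38, with 9 of 10. No member had the same sign in all 4 animals, where 4.1% of all genes were higher and 3.79% lower in all 4. The intervals are wide, and a p that misses the threshold does not show that the tissues were alike.

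In rats on the riboflavin-normal diet the median of the members was -0.32, with 1 of 10 above 0 (49.9% of all genes). Cd36 had a mean difference of -1.19 (SE 0.41, interval -2.27 to -0.10, unadjusted p = 0.0378, limma adjusted p = 1), and Plin4 had a mean of -2.01 (SE 0.96, adjusted p = 1). None passed (0% of all genes), and Cd36 was the only member lower at an unadjusted p under 0.05, as 1.09% of all genes were (2.56% were higher, and 0 members). Without riboflavin-normal 1 the median was -0.21, and without riboflavin-normal 2 it was -0.07. Without riboflavin-normal 2 the Plin4 value was 0.02 and that of Lpl 0.58, while Cd36 stayed lower, at -0.59.

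On the riboflavin-deficient diet all 10 members were above 0 (49.1% of all genes), with a median of 0.72, and none passed (0%). The means were 2.01 for Fabp4 (SE 1.20, interval -1.13 to 5.15), 1.82 for Adipoq (SE 0.93, interval -0.62 to 4.25), 1.27 for Lpl (SE 0.79) and 0.86 for Cidec (SE 0.42). Cd36 (1.38, SE 0.41, unadjusted p = 0.0225, limma adjusted p = 1) and Cfd (0.57, SE 0.19, unadjusted p = 0.0304, limma adjusted p = 1) were the members with the smallest p, where 0.892% of all genes were higher at an unadjusted p under 0.05 and 1.03% lower. Without riboflavin-deficient 2 the median was 1.21. Without riboflavin-deficient 1 the median was -0.01, with 5 of 10 above 0, and Adipoq, Fabp4, Lpl, Plin1 and Lep stood at -0.16, -0.56, -0.03, -0.05 and -0.11. Cd36 and Cfd were then still above 0, at 0.80 and 0.43. The means of this diet thus came from both animals for Cd36 and Cfd, and from riboflavin-deficient 1 for Fabp4, Adipoq, Lpl and Cidec.

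The difference between diets in the neoplasia effect was above 0 for all 10 members (50.4% of all genes), with a median of 1.32, and 0 passed (0%). It was 2.57 for Cd36 (SE 0.59, interval 1.04 to 4.10, unadjusted p = 0.00819, limma adjusted p = 1), which ranked 97 among all genes by p. It was 0.80 for Cfd (SE 0.26, interval 0.11 to 1.49, unadjusted p = 0.0313, limma adjusted p = 1) and 0.58 for Pparg (SE 0.26, interval -0.11 to 1.27, adjusted p = 1), and for Pparg 0.34 without riboflavin-deficient 1. At an unadjusted p under 0.05 and in the higher direction were 2 of 10 members and 1.01% of all genes, and in the lower direction 0 members and 2.43%. Without riboflavin-deficient 1 the median was 0.29, with 7 of 10 above 0, without riboflavin-normal 2 it was 0.71, with 9 of 10, and without riboflavin-deficient 2 it was 2.13, with 10 of 10. The comparison of diets uses the same arrays as the effects within each diet. Marker lists of other cells moved in the same comparison, with medians of -2.27 for squamous epithelium (0 of 9 above 0), 1.02 for smooth muscle (8 of 8), 0.64 for matrix (7 of 8) and -0.63 for cytosolic ribosomal proteins (1 of 22), and 0.05 for skeletal muscle (7 of 11). None of these genes passed, and their part in the members' differences was not tested.

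Diets were also compared within each tissue, between animals. In neoplasia, all 10 members were higher in the riboflavin-deficient group (54.1% of all genes), with a median of 0.59 against 0.02 over all genes, and 0 passed (0%, limma adjusted p from 0.851 to 0.92). For 6 of 10 (Adipoq, Cidec, Cfd, Cd36, Lep and Pparg) both riboflavin-deficient values lay above both riboflavin-normal ones, as was so for 26% of all genes. The opposite order held for 23.2% of all genes and 0 members. The margins were narrow for Cidec, Adipoq and Lep. Riboflavin-deficient 2 read 4.04, 4.85 and 4.94, against 4.03, 4.80 and 4.85 in the higher riboflavin-normal animal. These values were all below the median of the negative controls. Cfd was the only member at an unadjusted p under 0.05 (0.40, SE 0.16, unadjusted p = 0.0473, limma adjusted p = 0.851, and 0.23 without riboflavin-normal 1), where 1.77% of all genes were higher and 3.31% lower. Fabp4 overlapped, since riboflavin-deficient 2 at 7.92 lay between the riboflavin-normal values of 7.90 and 8.43. Without riboflavin-deficient 1 the median was 0.15, with 7 of 10 above 0, and Fabp4, Lpl and Plin1 were below 0, at -0.24, -0.75 and -0.02. Without riboflavin-deficient 2 the median was 1.33, and without riboflavin-normal 1 it was 0.98. Beside them the medians were -1.71 for squamous markers (1 of 9 above 0), -0.70 for skeletal muscle (1 of 11), -0.58 for smooth muscle (0 of 8), -0.36 for matrix (0 of 8) and -0.94 for ribosomal proteins (0 of 22), and their part was not tested. In adjacent normal tissue the median was -0.33 (0.02 over all genes), 2 of 10 were above 0 (54.2%), and 0 passed (0%, adjusted p = 1). Cfd, Cd36, Plin4 and Pparg were lower in both riboflavin-deficient animals without overlap, as were 8.78% of all genes, while 11.8% of all genes and 0 members were higher without overlap. For Pparg the nearest values were 4.77 in riboflavin-deficient 2 and 4.79 in riboflavin-normal 1. Cfd was also lower at an unadjusted p under 0.05 (-0.41, SE 0.16, unadjusted p = 0.0433, limma adjusted p = 1), as were 1.05% of all genes (1.32% higher). The widest of these was Plin4, with a mean of -1.83 (SE 0.93, interval -4.09 to 0.43), and without riboflavin-normal 2 the median of the members was -0.18, without riboflavin-deficient 1 -0.15. Plin4 itself was -0.34 without riboflavin-normal 2 and -3.31 without riboflavin-normal 1. In the same tissue the medians were -1.19 for skeletal muscle markers (0 of 11 above 0), -1.52 for smooth muscle (0 of 8), -1.08 for matrix (0 of 8), 0.71 for squamous markers (9 of 9) and -0.26 for ribosomal proteins (5 of 22), and their part in the members' values was not tested.

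The members were also compared with each other over the 8 arrays, which share 1 normalisation. Among 45 pairs of members the median Pearson r was 0.67, from 0.03 (Plin1 with Plin4) to 0.98 (Adipoq with Fabp4). The 4 pairs above 0.90 were Adipoq with Fabp4, Cidec and Plin1, and Cidec with Fabp4. On the 7 arrays without the neoplasia of riboflavin-deficient 1 the median r was 0.27, 0 pairs were above 0.90 and 11 were below 0. There Adipoq with Cidec had r = -0.34 and Cidec with Fabp4 r = -0.17, whereas r was high for Plin4 with Lpl (0.89), Plin4 with Cd36 (0.88) and Cd36 with Lpl (0.78). Of those 7 arrays, the normal tissue of riboflavin-normal 2 was the highest for Plin4, Cd36 and Lpl. It read 9.77, 9.59 and 7.78, against at most 6.82, 8.08 and 6.69 on the rest. How far these r values rest on that array was not tested. Fabp4 was alike to both kinds on those 7 arrays, with r = 0.70 with Plin4, 0.70 with Cd36, 0.64 with Lpl and 0.60 with Adipoq, and its second-highest array was the normal tissue of riboflavin-normal 2. Cfd with Pparg had r = 0.77. The members thus did not divide into separate sets.

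Markers of other cells on these 2 arrays were as follows. In the pair of riboflavin-normal 2, 9 of 11 skeletal muscle markers, 7 of 8 smooth muscle markers and 7 of 8 fibroblast and matrix markers were at least 1 lower in neoplasia, with medians of -2.10, -2.43 and -1.72. The summed log2 level of the skeletal muscle markers was 159.4 on its normal array, 126.7 to 146.9 on the other normal arrays and 127.2 to 139.5 in neoplasia. For smooth muscle the sum was 90.9 there, 64.1 to 73.7 on the other normal arrays and 66.6 to 73.8 in neoplasia, and for the matrix markers 73.8, 52.4 to 54.1 and 51.1 to 58.7. Plin4, Cd36 and Lpl moved with these lists in that animal, and the part of muscle or connective tissue in their values was not tested. In the pair of riboflavin-deficient 1 the skeletal muscle median was -1.95, with 8 of 11 markers at least 1 lower in neoplasia, and the squamous median was -1.34, with 0 of 9 markers higher and 7 at least 1 lower. In that pair the members were thus higher and the listed squamous and skeletal muscle markers mostly lower. Tnnt1, the troponin of slow muscle fibres, is not on the skeletal list and was 3.85 higher in that neoplasia. The smooth muscle (-0.38), matrix (-0.05), endothelial (0.11) and macrophage (0.07) medians differed by less than 0.5. The summed endothelial level was 44.9 on that neoplasia array and 43.3 to 45.5 on the other 7, and the summed macrophage level 42.9 and 42.6 to 46.4. Control separation was 0.617 and 0.659 in the neoplasia and normal tissue of that animal, a difference of -0.042, against 0.119, -0.063 and 0.002 in riboflavin-normal 1, riboflavin-normal 2 and riboflavin-deficient 2. The part of tissue make-up and of array quality in these differences was not tested.

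**Figure D3:**
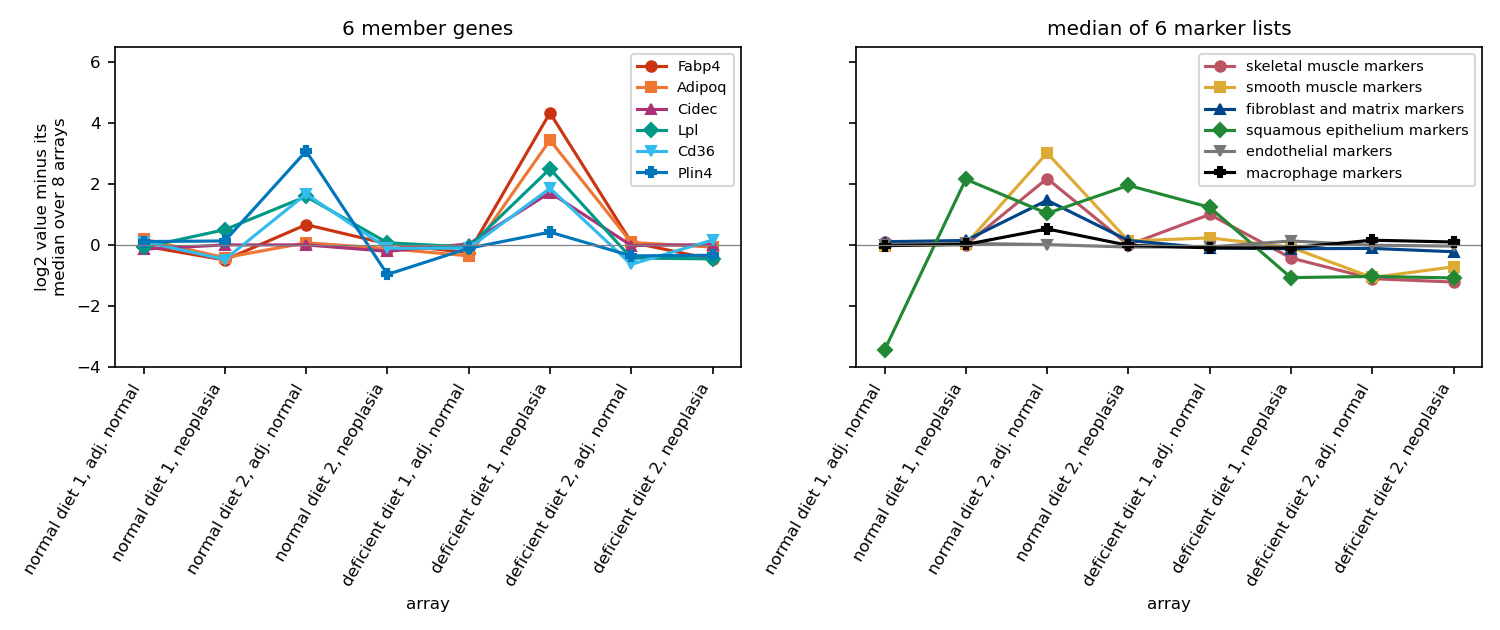
Log2 values on the 8 arrays, each minus its own median over the arrays, for 6 members (left) and for the medians of 6 marker lists of other cell types (right). Fabp4, Adipoq and Cidec have their peak on the neoplasia of riboflavin-deficient 1, where the squamous list is lower than in its normal partner, and Plin4 has its peak on the normal tissue of riboflavin-normal 2, as do skeletal muscle, smooth muscle and matrix markers.

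Of 8 further lists, also chosen with earlier results of these data known, 68 genes of fat cells and lipid stores were measured. None passed in any of the comparisons, and their medians for the mean neoplasia effect lay between -0.01 and 0.14. In the pair of riboflavin-deficient 1, 6 of the 68 were at least 1 higher in neoplasia and 4 at least 1 lower, where 1.06% and 2.77% of all genes were. The higher and lower counts were 4 and 0 in riboflavin-normal 1 (4.09% and 1.72% of all genes), 1 and 3 in riboflavin-normal 2 (1.14% and 2.95%) and 0 and 0 in riboflavin-deficient 2 (0.665% and 0.706%). The 6 were Thrsp, a regulator of fat synthesis (4.46), the carrier of vitamin A Rbp4 (1.90), resistin (Retn, 1.46), the lipolysis inhibitor G0s2 (1.36), the adrenergic receptor of fat cells Adrb3 (1.33) and angiotensinogen (Agt, 1.32). The 4 lower were the lipase activator Abhd5 (-1.41), the droplet gene Fitm1 (-1.04), the epidermal fatty acid carrier Fabp5 (-3.16) and the respiratory chain subunit Cox8b (-1.09). Of these 10, Rbp4, Retn, G0s2, Adrb3, Abhd5 and Fabp5 were named after their values were seen. Thrsp read 10.83 on that neoplasia array and 6.37 to 7.56 on the other 7, and Rbp4 read 7.57 there and 5.35 to 6.06 elsewhere.

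List by list, the lipolysis genes had a median of 0.40 in that pair with 5 of 7 higher, the triglyceride synthesis genes 0.28 with 6 of 7 higher, and the other adipocyte markers 0.22 with 8 of 10 higher. The adipokine list, which holds Rbp4, Retn and Agt, had a median of 0.07 with 5 of 9 higher, the uptake list 0.08 with 7 of 10 higher, and the brown fat markers 0.18 with 3 of 4 higher. The hormone-sensitive lipase Lipe had a mean of 0.23 over the 4 animals (SE 0.12, limma adjusted p = 1) and was higher in each of them, by 0.06 to 0.40. Adipogenic regulators had a median of -0.15 with 1 of 12 higher, and the other lipid droplet proteins -0.10 with 1 of 9 higher. Cebpa, which acts with Pparg in fat cell formation, read 7.59 and 7.71 in the neoplasia and normal tissue of that animal. Plin2, the droplet coat of most cell types, was 0.25 higher in that neoplasia. Of the brown fat markers, Ucp1, which uncouples respiration, read 4.67 and 4.27 and was at or under 4.67 on all 8 arrays. Among uptake genes the insulin-responsive glucose transporter Slc2a4 differed by -0.30. Nampt, of the adipokine list, was lower in all 4 animals, with a mean of -0.48 (SE 0.13, limma adjusted p = 1).

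**Figure D4:**
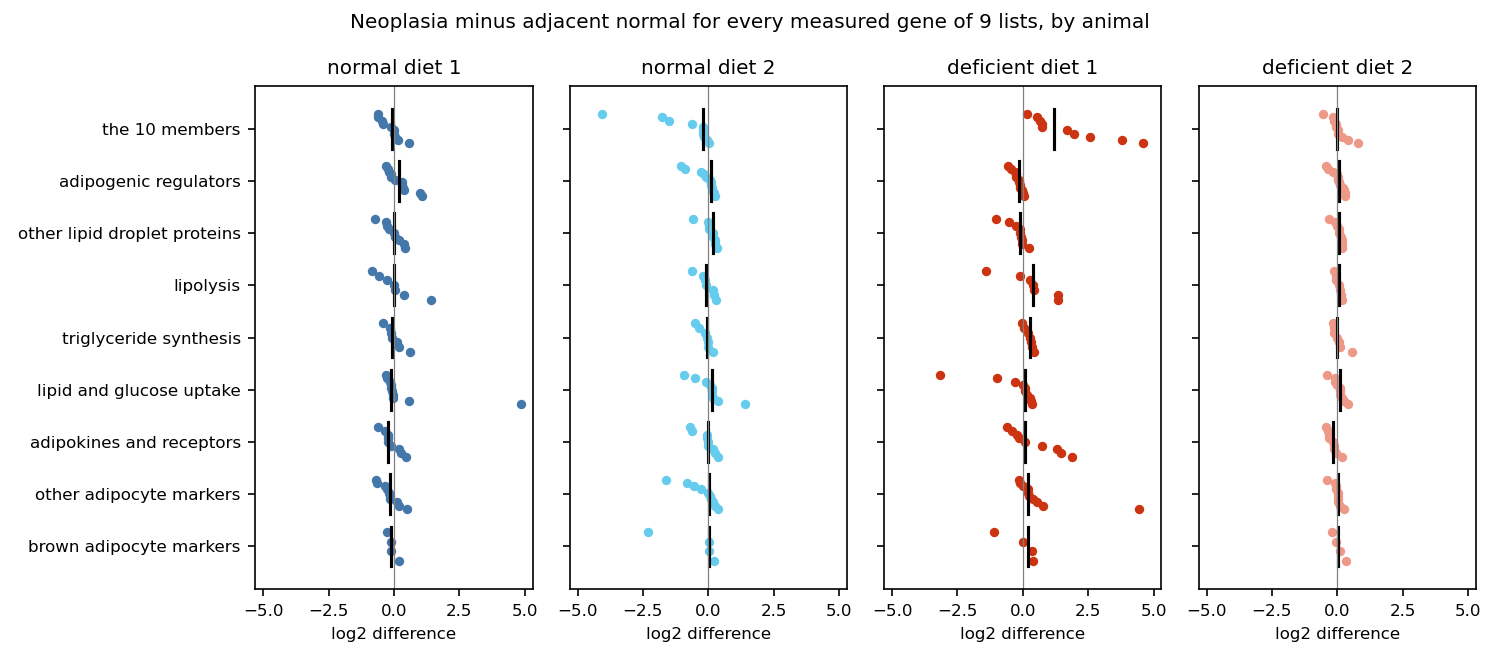
Log2 difference, neoplasia minus adjacent normal tissue, for every measured gene (points) of the 10 members and of 8 further lists (rows), with the median of each list as a vertical bar, in a panel per animal. In riboflavin-deficient 1 the members spread to 4.59 with a median of 1.21, whereas the regulators have a median of -0.15 with 1 of 12 above 0 and the other droplet proteins -0.10 with 1 of 9 above 0.

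The genes whose profile was most like the mean of the members were looked up among 2473 genes with an SD over the arrays of at least 0.5. The 10 most alike had r from 0.88 to 0.967 over the 8 arrays. The first and second were Mir3590 (0.967) and Smsl1 (0.956), and LOC102556486 had 0.901. The others included Cdo1, an enzyme of cysteine breakdown (r = 0.946), the semaphorin Sema3e (0.924), the mitochondrial carbonic anhydrase Car5b (0.899), Rgs2 (0.896), and Scd and Fasn, enzymes of fatty acid synthesis (both 0.88). Scd read 8.82 in the neoplasia of riboflavin-deficient 1 and 5.37 to 6.13 on the other 7 arrays, Fasn 7.53 and 5.60 to 6.24, and both belong, with Acaca of the same pathway (1.39 higher in that pair and named after its value was seen), to the 32 genes at least 1 above every other array there. Tnnt1, the troponin of slow muscle fibres (r = 0.902), read 11.62 on that neoplasia array and 11.41 on the normal array of riboflavin-normal 2, against 6.86 to 8.35 on the other 6. It was 3.85 higher in the neoplasia of riboflavin-deficient 1, in a pair in which 8 of 11 skeletal muscle markers were at least 1 lower. The likeness of Scd and Fasn came largely from the neoplasia array of riboflavin-deficient 1, since without it their r was 0.24 and 0.41. That of Tnnt1 was then 0.91, on arrays where Tnnt1 and the mean of the members both peaked on the normal array of riboflavin-normal 2. The mean of the members was 6.66 there, against 5.75 to 5.93 on the rest. The part of that normal array in the r of Tnnt1 was not tested.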

How the data were processed

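The authors deposited log2 values per probe set, for which the submitters' processing notes name RMA and Affymetrix Expression Console. Their versions and the genome build are not given in the sources used here. The table held 70580 probe sets on 8 arrays. Of these, 23446 had 1 gene symbol in the platform annotation, 505 had several, and 46629 were unnamed here or controls. Symbols were updated through Entrez IDs (22077 matched, 1 changed), and the probe set of highest mean was kept per gene (22093 genes). Arrays give no counts, so their number limits the precision.

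Comparisons were fitted to all genes with limma 3.58.1 in R 4.3.3 with a call at an adjusted p under 0.05 (Benjamini-Hochberg). The neoplasia effect had the animal as a block and 1 neoplasia term for each diet (2 residual degrees of freedom). Both tissues of a pair carry 1 animal code in the descriptions. Replicate differences of the 2 tissues correlated at 0.19 and 0.16 over genes in the riboflavin-normal and riboflavin-deficient animals. Diets were compared between group means (4 residual degrees of freedom), where animal and diet cannot be told apart. An exact test on 4 pairs cannot go below p = 0.125, or below 0.333 on 2 against 2, so none was used. All 10 members were named in every comparison. Of each further list (17 lists, 160 of 172 entries measured with the members) up to 3 genes of smallest p could be named, and others named for their values are said to be so or are described for their role. The likeness rule took 10 genes. Scripts were tested on simulated data. Alternatives were quantile normalisation, cyclic loess, the mean of probe sets, the upper 50 percent of genes, a variance trend, other blocks and each animal left out. The members and lists were chosen with earlier results of these data known.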

Additional observations from a re-analysis of the deposited data

Results flagged for a closer look

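Among the 4 within-animal differences of a gene, 1 animal stood apart from the other 3 by Dixon's test for 4 of the 10 members, a test that chance passes in about 1 of 20 groups and that 5.78% of all genes passed here. It was riboflavin-deficient 1 for Fabp4 (4.59), Adipoq (3.79) and Plin1 (0.73), and riboflavin-normal 2 for Plin4 (-4.05). For Fabp4 the gap to the next animal was 0.968 of the whole range, for Plin1 0.914, for Adipoq 0.896 and for Plin4 0.890.

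The neoplasia effect ran in opposite directions in the animals of the 2 diets for Cd36 (difference between diets 2.57), Cfd (0.80) and Pparg (0.58), each with both riboflavin-deficient animals higher in neoplasia and both riboflavin-normal animals lower, as 4.6% of all genes had. The limma test of these differences gave an adjusted p = 1 for each, so none passed.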

How the results depend on the processing

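With the settings tried, 0 genes passed in any of the 6 comparisons, and 0 members. The mean of all probe sets and the variance trend could not change a member's difference, since each member had 1 probe set and the trend alters only the error. Quantile normalisation and cyclic loess kept the sign of every member in every comparison with 4 exceptions of at most 0.01 in size. These were Cidec on the riboflavin-normal diet at 0.00 under cyclic loess, Lep on the riboflavin-deficient diet at -0.01 under both normalisations, and Cidec between diets in normal tissue at -0.01 under quantile normalisation. The upper 50 percent of genes held 6 of the 10 members, whose medians were 0.28, -0.51, 1.33, 2.25, -0.71 and 1.02 in the order mean, riboflavin-normal, riboflavin-deficient, difference between diets, diets in normal tissue and diets in neoplasia. The design is balanced, so leaving out the animal block or adding a replicate block cannot change a difference, only its error. Without the animal block the medians of the members were therefore the same (0.17, -0.32, 0.72 and 1.32 for the mean, the riboflavin-normal diet, the riboflavin-deficient diet and the difference between diets). With the replicate number as a block, which pairs no animals across diets, they were -0.33 in normal tissue and 0.59 in neoplasia, also the same. The calls, which can change with the error, did not change in any paired or unpaired fit.

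Leaving out an animal moved values by more; the cause was not tested. A diet's effect then rests on 1 pair or array, which is assumed to vary like the others. For the mean neoplasia effect the values ran from -0.28 to 1.69 for Adipoq, -0.55 to 2.02 for Fabp4, 0.00 to 0.83 for Cidec, -0.20 to 0.40 for Cd36, -0.02 to 0.37 for Plin1, -1.89 to 0.15 for Plin4, -0.25 to 1.05 for Lpl and -0.08 to 0.06 for Lep. On the riboflavin-normal diet they ran from -0.32 to -0.07 for the median of the members, -0.22 to 0.14 for Cidec, 0.00 to 0.02 for Plin1, -4.05 to 0.02 for Plin4, -1.52 to 0.58 for Lpl and -0.17 to 0.06 for Lep. On the riboflavin-deficient diet they ran from -0.16 to 3.79 for Adipoq, -0.05 to 0.73 for Plin1, -0.56 to 4.59 for Fabp4, -0.03 to 2.57 for Lpl and -0.11 to 0.17 for Lep. For the difference between diets they ran from 0.29 to 2.13 for the median, -0.05 to 0.72 for Plin1, -0.02 to 5.13 for Fabp4 and -0.05 to 0.23 for Lep. Between diets in normal tissue they ran from -0.47 to -0.15 for the median, -0.24 to 0.03 for Plin1 and -0.04 to 0.39 for Lep. Between diets in neoplasia they ran from -0.02 to 0.48 for Plin1, -0.09 to 1.01 for Plin4, -0.24 to 4.56 for Fabp4 and -0.75 to 2.21 for Lpl. Plin1, Pparg and Lep lay below the median of the negative controls on all arrays, and Adipoq and Cidec on every array but the neoplasia of riboflavin-deficient 1, which limits what their differences show.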
